A study of Rattus norvegicus with 13 samples.

Results

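The extracellular matrix genes of rat liver, together with genes that mark the hepatic stellate cell, were followed in microdissected oval cells and early preneoplastic foci. All genes annotated as a collagen chain on the array were taken, with 39 further matrix, matrix enzyme and stellate cell genes given by name. Of the named genes 31 had an annotated probe and 25 collagens were present, which made 56 genes among the 13337 with a symbol. The 8 named genes with no annotated probe were Lama5, Lamb1, Hspg2, Nid1, Nid2, Thbs1, Pdgfrb and Acta2, and they were not analysed here. A gene with more than 1 probe was given by the brightest, which applied to Loxl1 alone.

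The expression arrays were Illumina rat BeadChips, with 6 arrays of oval cells, 5 of preneoplastic foci and 2 of control liver. The animals were male Fischer rats of the Resistant-Hepatocyte (R-H) model, which received diethylnitrosamine (DENA), a carcinogen that initiates hepatocytes, and then 2-acetylaminofluorene (2-AAF) in the diet around a partial hepatectomy (PH). Oval cells, small biliary-like cells that spread from the portal tracts, and foci, small clusters of altered hepatocytes, were taken by laser microdissection 1 week after PH and pooled. The control arrays carry the label of hepatocytes, and the study describes them both as normal liver and as random areas of treated rats, so that which tissue they hold is not clear, and the effects of cell type and of treatment cannot be told apart. Oval cells and control were hybridised on slide 1 and foci on slide 2. In any comparison with foci, the slide cannot be told apart from the group. More oval cell arrays were made than animals are described, so that some pools share an animal and the p-values are too small. The ages of the animals are not given in the sources used here.

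Matrix proteins are secreted in the liver chiefly by stellate cells of the sinusoid and fibroblasts of the portal tract, and by vascular smooth muscle cells. Fibrillar collagens are hydroxylated in the endoplasmic reticulum, trimmed by procollagen proteinases outside the cell and crosslinked by lysyl oxidases. Type IV collagen and laminins form the sheet of basement membrane on which biliary epithelium and vessels rest. Small leucine-rich proteoglycans bind the collagen fibrils, and tissue inhibitors of metalloproteinases limit their breakdown. A stellate cell that becomes activated takes on contractile proteins and makes matrix. In bulk tissue, fewer cells of a type and less RNA per cell cannot be told apart.

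Values are deposited intensities, quantile normalized on a linear scale, and an intensity of 300 was used as the limit of a measured signal. Each array had between 26.82% and 26.83% of its probes over that limit and a median intensity between 182.9 and 183.3. Of the 56 genes 34 had a median intensity over 300 in at least 1 group and were tested, among 6997 of 22523 probes. Oval cells alone carried 10 of these 34 past the limit, namely Loxl1, Loxl2, Eln, Col1a1, Lamb2, Lamc1, Col8a1, Timp2, Bgn and Des, so that the direction of these genes was set by the limit and their difference is a description. A further 17 were over 300 in all 3 groups and 7 in oval cells and 1 other group. Calls of higher or lower required a fitted difference of 2-fold or more and a limma p under 0.05 after Benjamini-Hochberg adjustment over all 6997 probes. Where no array of 1 group reached 300, the fold is a lower bound, the mean intensity of the other group divided by 300.

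Oval cells carried more signal of most of these genes than control liver. Of the 34 genes 29 were called higher and 0 lower, while 13.5% of all probes tested were called higher and 12.0% lower. The 29 include 9 of the 10 genes that passed through oval cells alone. Of the other 24 genes 20 were higher, as were 13 of the 17 over 300 in all 3 groups. These counts describe the genes that passed the limit. The median log2 difference over the 34 genes was 1.91, beside 0.01 over all probes. Of the 34 genes 31 lay above control on every oval cell array, which 37.7% of all probes did, and 0 lay below control on every array, which 35.7% did. Preneoplastic foci differed from control in both directions, with 6 genes higher, 4 lower and 24 with no call, beside 10.3% and 7.80% of all probes, and the median log2 difference was 0.20. Of the 34, 12 lay above control and 8 below it on every foci array, beside 34.5% and 34.1% of all probes. Against foci, oval cells were higher for 27 genes and lower for 0, beside 7.96% and 6.73% of all probes, with a median log2 difference of 2.01. The 27 again include 9 of the 10 genes that passed through oval cells alone, and of the other 24 genes 18 were higher. Scaling moves these counts. With arrays centred on 52 ribosomal protein genes, the median log2 difference of all probes was -1.02 in oval cells and -0.83 in foci against control. On that scale 15 of the 34 genes were higher and 2 lower in oval cells against control, beside 3.76% and 50.8% of all probes, and 0 were higher and 12 lower in foci, beside 2.34% and 40.0%. Against foci, 23 were higher in oval cells on that scale, beside 5.32% of all probes. The 14 higher calls lost there in oval cells against control were Loxl2, Eln, Emilin1, Fbn1, Col3a1, Lamb2, Lamc1, Sparc, Sparcl1, Mmp14, Bgn, Ogn, Des and Pdgfra.

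**Figure D1:**
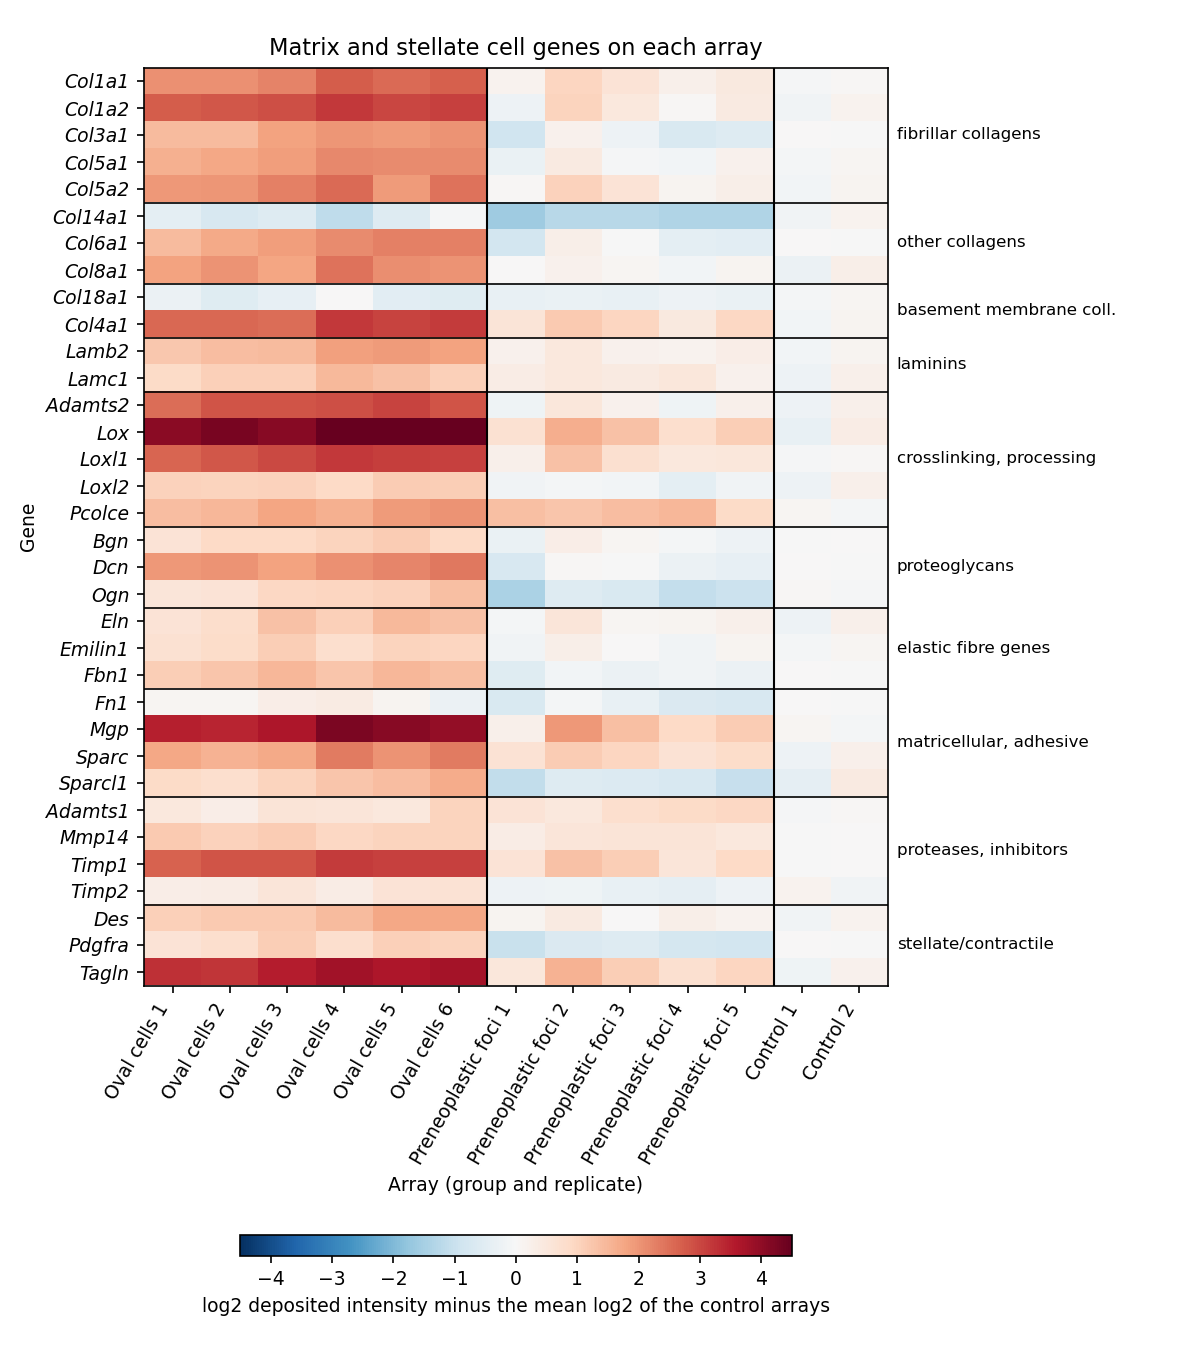
Each row is 1 of the 34 tested genes, ordered by role, and each column 1 array, with the color giving the log2 deposited intensity minus the mean log2 of the control arrays. The oval cell columns are red for nearly every gene, while the foci columns are mostly pale or blue outside Lox, Loxl1, Pcolce, Mgp, Timp1 and Tagln.

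The promoters of 4 genes are shown because these genes stand for different patterns across the groups. Col1a2 and Col4a1, a fibrillar and a basement membrane collagen, were called higher in oval cells alone. Timp1 was called higher in both lesions, and Pdgfra higher in oval cells and lower in foci. Each is the 250 bases before the gene's start in RefSeq on the build GRCr8, at chr4:33518307-33518556 (plus strand), chr16:84885347-84885596 (plus strand), chrX:3771123-3771372 (minus strand) and chr14:33408517-33408766 (minus strand). Capitals mark matches on either strand to the CCAAT box, the TATA box (TATAAA), the core bound by TEAD factors (GGAATG) and the GC box (GGGCGG). They also mark a loose AP-1 pattern (TGANTCA), in which N is any base.
Col1a2: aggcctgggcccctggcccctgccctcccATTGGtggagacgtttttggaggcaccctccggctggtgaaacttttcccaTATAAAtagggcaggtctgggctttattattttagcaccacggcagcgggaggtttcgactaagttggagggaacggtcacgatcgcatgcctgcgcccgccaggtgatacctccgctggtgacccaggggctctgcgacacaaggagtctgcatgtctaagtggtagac
Col4a1: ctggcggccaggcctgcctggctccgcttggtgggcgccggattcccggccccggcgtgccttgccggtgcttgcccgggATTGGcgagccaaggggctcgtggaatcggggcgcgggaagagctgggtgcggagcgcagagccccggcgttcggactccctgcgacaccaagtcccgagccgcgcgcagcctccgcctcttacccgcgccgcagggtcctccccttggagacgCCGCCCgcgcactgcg
Timp1: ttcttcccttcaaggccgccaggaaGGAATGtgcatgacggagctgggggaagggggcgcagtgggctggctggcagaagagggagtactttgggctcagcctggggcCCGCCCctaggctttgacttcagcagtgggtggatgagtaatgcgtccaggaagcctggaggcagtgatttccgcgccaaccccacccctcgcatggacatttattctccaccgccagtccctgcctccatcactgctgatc
Pdgfra: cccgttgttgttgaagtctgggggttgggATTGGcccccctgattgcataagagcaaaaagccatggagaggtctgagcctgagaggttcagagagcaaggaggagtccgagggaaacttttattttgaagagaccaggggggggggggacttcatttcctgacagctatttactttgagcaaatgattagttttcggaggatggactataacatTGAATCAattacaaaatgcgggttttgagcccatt

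A CCAAT box lay in the windows of Col1a2, Col4a1 and Pdgfra, with its first base at -221, -170 and -221 from the start. Col1a2 also held a TATA box at -170, Col4a1 a GC box at -16, and Timp1 a TEAD core at -225 and a GC box at -142. Pdgfra held a match to the loose AP-1 pattern at -35, with the letters TGAATCA. No 2 of these matches overlapped. RefSeq windows were found for 38 of the 56 genes and for 20 of the 34 tested. Among these 20, 11 held a GC box, 5 a TEAD core, 4 a CCAAT box, 3 a TATA box and 2 the loose AP-1 pattern. In all 33469 windows of this length the shares were 30.5% for the GC box, 12.1% for the TEAD core and 34.0% for the CCAAT box. They were 12.9% for the TATA box and 6.34% for the loose AP-1 pattern. A match describes the letters of the window alone.

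The fibrillar collagens, which form the ropes of interstitial matrix, were higher in oval cells for all 5 genes tested. Among them Col1a1 had passed the limit through oval cells alone, so that its direction is not a result. Col1a2, the second chain of type I collagen, had a lowest, median and highest intensity of 18132, 21435 and 24833 in oval cells, against 2387, 5573, 3812, 2861 and 3648 in foci and 2471 and 3092 in control. Every oval cell array thus lay above every other array, and the foci arrays lay on both sides of control. The log2 difference was 2.98 ± 0.23 (SE) against control (7.87-fold, limma adjusted p = 4.45e-08). Col1a1, the partner chain of type I, read 819.9, 1049 and 1318 in oval cells, 223, 388, 302, 230.1 and 271 in foci and 192 and 204 in control. With both control arrays under 300 its fold was at least 3.52-fold, and 1 probe cannot be set against another for level. Col3a1, the type III chain of young scar, was 2221, 3014 and 3340.5 in oval cells and 838 and 810.4 in control, a log2 difference of 1.86 ± 0.25 (SE). The foci arrays of Col3a1 read 442, 935, 708, 518 and 556, and 4 of the 5 lay under both control arrays. The type V chains, which nucleate fibrils, ranged over 1451 to 2112 for Col5a1 in oval cells against 451 to 503 in control, and over 1778 to 2754 for Col5a2 against 425 to 512. Their log2 differences were 2.11 and 2.37. No fibrillar collagen was called in foci against control, where the log2 differences lay between -0.49 for Col3a1 and 0.68 for Col1a1.

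Of the other collagens, Col6a1 and Col8a1 were higher in oval cells and Col14a1 was not. Col6a1, a chain of the beaded microfibrils around cells, read 1666, 2476 and 2988 in oval cells, 348, 733, 605, 457 and 447 in foci and 621 and 608 in control. Its log2 difference was 2.08 ± 0.28 (SE) in oval cells against control. Col8a1, a short-chain collagen of vessel walls, read 643, 779 and 1035 in oval cells, while all foci and control arrays lay between 159 and 226. With both of those groups under 300, it was at least 2.62-fold higher in oval cells in either comparison. Col8a1 had passed the limit through oval cells alone, so that its direction is not a result. Col14a1, a fibril-associated collagen, ran the other way, with 653, 959 and 1389.5 in oval cells, 466, 606, 597, 563 and 553 in foci and 1280.1 and 1595 in control. All foci arrays lay below both control arrays, and the call in foci was lower by 2.81-fold (log2 -1.49 ± 0.22 SE, adjusted p = 3.92e-05). Oval cells overlapped control for this gene, and at -0.62 the log2 difference did not reach 2-fold.

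The 2 basement membrane collagens tested did not move together. Col4a1, the common chain of type IV collagen, read 2345, 2929 and 3737 in oval cells, 614, 918, 798, 554 and 789 in foci and 373 and 449.6 in control. The groups were in 3 separate ranges, with oval cells 8.48-fold higher than control (log2 3.08 ± 0.23 SE, adjusted p = 2.28e-08). Foci were above control on every array, by a log2 difference of 0.94 ± 0.23 (SE) that missed the fold limit. Without foci replicate 1, without foci replicate 4 or without control replicate 2 this difference passed it, at 1.01, 1.05 and 1.11. Col18a1, the source of endostatin, read 1716, 1888 and 2562 in oval cells, 2030.3, 2072, 2010.3, 2149 and 2057 in foci and 2374 and 2695 in control. Its log2 differences of -0.38 in oval cells and -0.30 in foci against control were under the fold limit. Of the laminins, Lamb2 had 560.1, 743 and 904 in oval cells, 276, 330.3, 275, 264 and 291 in foci and 218 and 262 in control. Lamc1, the gamma chain shared by most laminins, had 372, 434 and 560.4 in oval cells, 258, 285, 272, 290.2 and 231 in foci and 174 and 241 in control. Both laminin chains were called higher in oval cells against control, at least 2.46-fold and at least 1.52-fold, and neither was called in foci. Both had passed the limit through oval cells alone, so that the direction is not a result for either. Against foci the call held for Lamb2 alone, since the log2 difference of Lamc1 was 0.97.

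The enzymes that mature and crosslink collagen were higher in oval cells for 5 of 5 genes, with a median log2 difference of 3.08. Among them Loxl1 and Loxl2 had passed the limit through oval cells alone, so that the direction is not a result for either. Lox, lysyl oxidase, which starts the crosslinks of collagen and elastin, read 4639, 6121 and 8307 in oval cells, 448, 870.1, 689, 466 and 604 in foci and 222 and 346 in control. The 3 groups did not overlap. Its log2 difference was 4.87 ± 0.30 (SE) in oval cells against control (adjusted p = 4.12e-09), the largest fitted value of the 34 genes, and 1.36 ± 0.30 in foci (adjusted p = 0.00125). The fitted folds of 29.2 and 2.56 are uncertain in size, since 1 control array lay under 300. Those of Tagln and Loxl1, with both control arrays under 300, have only a bound, so that the order among the 3 is not settled. Without control replicate 1 the log2 difference of Lox in foci was 0.93 and the call was lost.

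Loxl1, a lysyl oxidase needed for elastic fibres, read 965, 1271 and 1428 in oval cells, 183, 394, 258, 220.0 and 224 in foci and 150.2 and 164 in control. It was at least 4.10-fold higher in oval cells, while in foci 4 of 5 arrays lay under 300 and no fold can be given beside the fitted log2 difference of 1.01. The foci call was lost without foci replicate 2 (0.78), without foci replicate 3 (0.98) and without control replicate 1 (0.89). A second probe of Loxl1 averaged 873 in oval cells, 248.6 in foci and 199.8 in control. With the probes averaged the foci value was 0.72 and the call was lost, as it was with the methods' t-test. Loxl2, which crosslinks type IV collagen among others, read 481, 529 and 569.7 in oval cells, 229.9, 244, 236, 192 and 233 in foci and 222 and 304 in control, a log2 difference of 1.29 ± 0.15 (SE) against control that was 0.98 without control replicate 1. The proteinase Adamts2 trims the amino end of procollagens and Pcolce, an enhancer, speeds the trimming of the carboxy end. Adamts2 read 2255, 2805 and 3234 in oval cells, 347, 554, 445, 343 and 462 in foci and 331 and 466 in control, 8.47-fold higher in oval cells, with a log2 difference of 0.13 in foci. Pcolce read 567, 694 and 876 in oval cells, 554, 511, 560.1, 602 and 393 in foci and 226 and 204 in control. It had the largest fitted difference in foci against control among the 34, with both control arrays under 300 (log2 1.64 ± 0.20 SE, at least 1.75-fold, adjusted p = 5.15e-06). Oval cells and foci overlapped for Pcolce, and between them the log2 difference of 0.49 was not called.

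**Figure D2:**
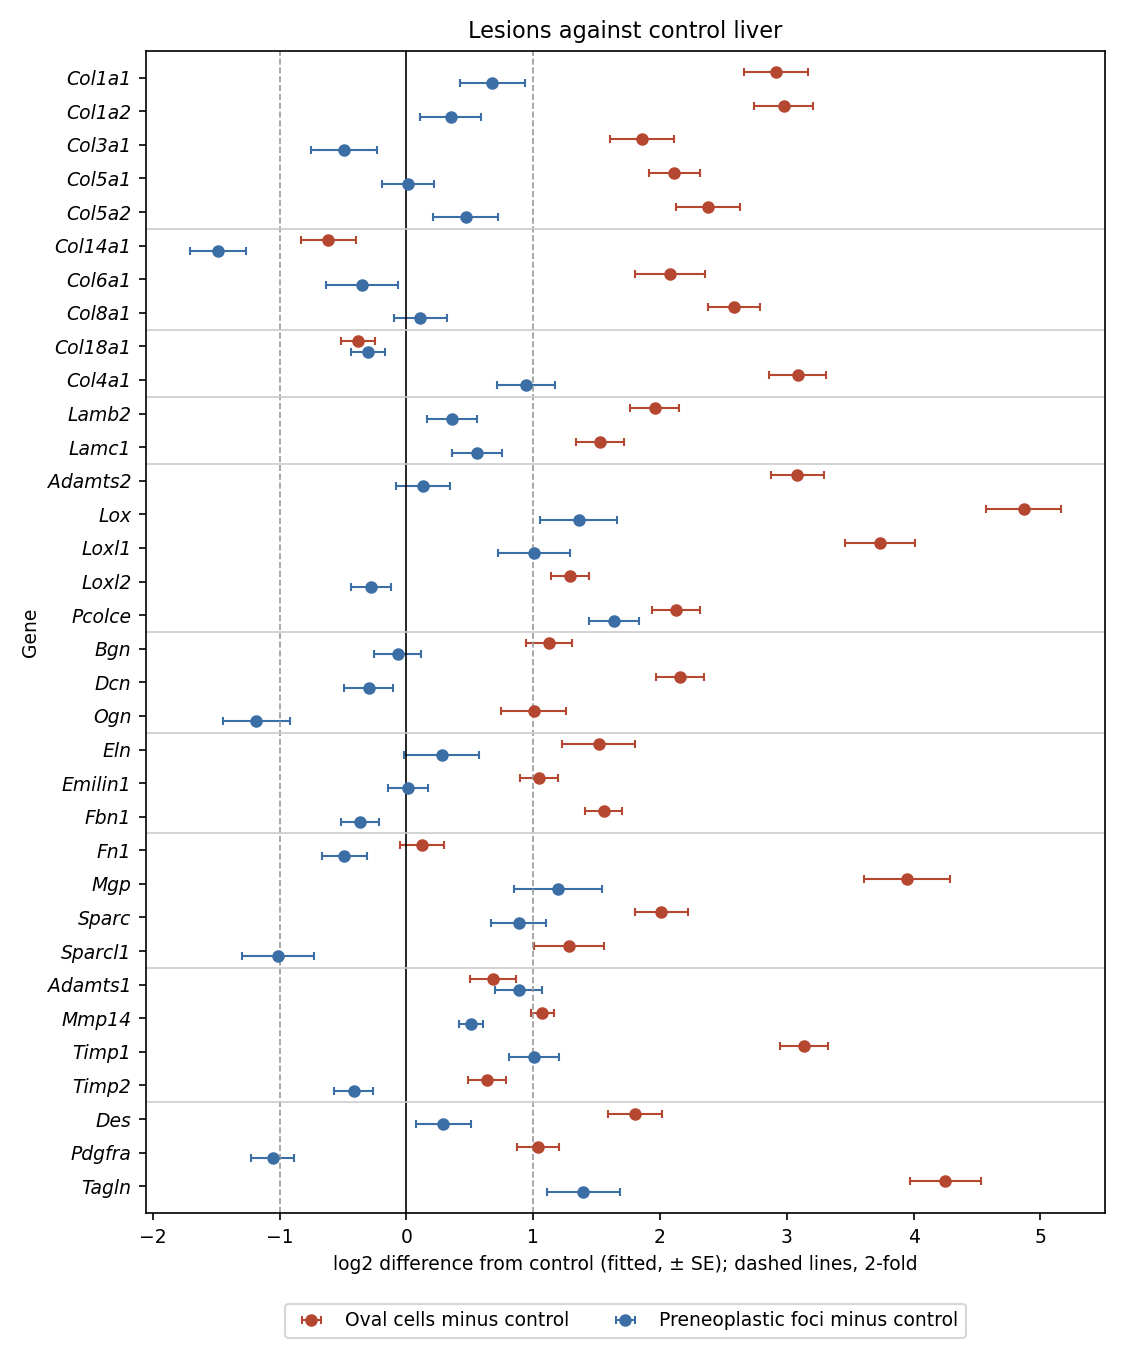
Fitted log2 differences from control (± SE) of the 34 tested genes, ordered by role, for oval cells and for preneoplastic foci, with dashed lines at a 2-fold difference. Oval cells reach 4.87 for Lox, and Ogn, Pdgfra and Sparcl1 reach the 2-fold lines on opposite sides in the 2 lesions.

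The proteoglycans that coat collagen fibrils were higher in oval cells for 3 of 3 genes. Among them Bgn had passed the limit through oval cells alone, so that its direction is not a result. Dcn, decorin, read 3014, 3544 and 4458 in oval cells, 524, 888, 852, 724 and 661 in foci and 869.8 and 859 in control, 4.47-fold higher in oval cells against control and 5.50-fold higher against foci. Foci and control overlapped for Dcn. Bgn, biglycan, read 430.1, 519.8 and 608 in oval cells, 226, 341, 296, 264 and 235 in foci and 273 and 283 in control, and was at least 1.75-fold higher in oval cells. Ogn, osteoglycin, read 777, 1023 and 1368 in oval cells, 198, 353, 327, 255 and 274 in foci and 546 and 517 in control. The groups of Ogn did not overlap, with foci below control and oval cells above it. Its log2 difference of 1.00 ± 0.26 (SE) in oval cells stood at the fold limit. It fell under it without oval cells replicate 3, 4, 5 or 6 or control replicate 2, to 0.91 at the lowest without oval cells replicate 6, and was -0.03 with arrays centred on ribosomal protein genes (adjusted p = 0.922). In foci it was -1.18 ± 0.26 (SE, adjusted p = 0.00121). Without background correction the values were 0.91 in oval cells and -0.95 in foci, both under the fold limit.

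The elastic fibre genes were higher in oval cells for 3 of 3 and called in foci for 0. Among them Eln had passed the limit through oval cells alone, so that its direction is not a result. Fbn1, fibrillin, the scaffold of microfibrils, read 683, 787 and 884 in oval cells, 214, 290.1, 264, 285 and 263 in foci and 317 and 314 in control. Its log2 difference against control was 1.56 ± 0.15 (SE) in oval cells and -0.36 in foci. Eln, elastin itself, read 282, 430.0 and 515 in oval cells, 174, 273, 198, 202 and 217 in foci and 158 and 220.3 in control, and was at least 1.36-fold higher in oval cells. Emilin1, which sits between elastin and its microfibrils, read 591, 675 and 789 in oval cells, 323, 440.0, 364, 325 and 396 in foci and 341 and 388 in control. Its log2 difference of 1.05 ± 0.15 (SE) was near the fold limit and fell under it without control replicate 1, at 0.93, and without oval cells replicate 3, and against foci without oval cells replicate 3 or foci replicate 1 or 4, at 0.98 each. It was 0.89 without background correction and 0.02 with arrays centred on ribosomal protein genes (limma adjusted p = 0.913).

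Among matricellular and adhesive proteins the differences were uneven. Mgp, matrix Gla protein, an inhibitor of calcification, read 7742, 10070.2 and 13796 in oval cells, 852, 2822, 1838, 1341 and 1611 in foci and 769 and 680.4 in control. It was 15.4-fold higher in oval cells (log2 3.95 ± 0.34 SE, adjusted p = 1.03e-07) and 2.29-fold higher in foci (adjusted p = 0.00719), where the log2 difference was 0.97 without foci replicate 2 and the adjusted p 0.0605 without control replicate 2. Sparc, osteonectin, a collagen-binding protein, read 4221, 5242 and 7112 in oval cells, 2227, 3121, 2763, 2216 and 2498 in foci and 1194 and 1665 in control. Foci lay above control on every array for Sparc, at a log2 difference of 0.88 ± 0.22 (SE) that was under the fold limit and 1.14 without control replicate 2. Sparcl1, its relative, read 839, 1080.1 and 1593 in oval cells, 229.6, 329.6, 327, 298 and 241 in foci and 378 and 652 in control. Oval cells lay above and foci below both control arrays, with log2 differences of 1.28 ± 0.28 and -1.01 ± 0.28 (SE). Without background correction the foci value was -0.82, under the fold limit. The 2 control arrays of Sparcl1 were far apart. Without control replicate 1 the oval cell value was 0.82, and without control replicate 2 the foci value was -0.55 (limma adjusted p = 0.175), while without foci replicate 1 or 5 it was -0.91 or -0.93. Fn1, fibronectin, which hepatocytes also secrete, read 12331, 15949 and 19283 in oval cells, 9278, 13959.8, 11678, 9461 and 9023 in foci and 15129 and 14413 in control, and was called in no comparison.

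Of the 4 proteases and inhibitors tested, Timp1 and Mmp14 were higher in oval cells against control. Timp1, an inhibitor of most matrix metalloproteinases, read 3021, 3792 and 4301 in oval cells, 752, 1203, 1040.1, 704 and 914 in foci and 484 and 487 in control. The groups did not overlap, and it was 8.79-fold higher in oval cells (adjusted p = 4.02e-09) and 2.01-fold higher in foci (adjusted p = 0.000413). The foci value was 0.89 on the log2 scale without foci replicate 2 and 0.95 without foci replicate 3, under the fold limit. It was also under the limit without background correction (0.90), with cyclic loess (0.92) and with arrays centred on ribosomal protein genes (0.17). Timp2 read 294, 323 and 375 in oval cells, 204, 208, 187, 177 and 201 in foci and 263 and 213 in control, and was called against foci alone, at least 1.10-fold higher in oval cells, a call lost without foci replicate 4 (log2 0.99). Mmp14, the membrane-bound metalloproteinase that cuts collagen at the cell surface, read 3688, 3913 and 4329 in oval cells, 2442, 2807, 2867, 2867 and 2682 in foci and 1904 and 1966 in control. Its 3 groups were in separate ranges, with log2 differences against control of 1.07 ± 0.09 in oval cells and 0.51 ± 0.09 in foci (SE). The oval cell value was 0.89 with cyclic loess, under the fold limit, and 0.04 with arrays centred on ribosomal protein genes (limma adjusted p = 0.746). Adamts1, a proteinase that cuts versican and other proteoglycans, read 385, 447 and 639 in oval cells, 483, 437, 538, 577 and 598 in foci and 304 and 328 in control. Both lesions lay above control for Adamts1, at log2 differences of 0.68 and 0.88 that were under the fold limit.

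The stellate cell and contractile genes were all higher in oval cells. Among them Des had passed the limit through oval cells alone, so that its direction is not a result. Tagln, transgelin, an actin-binding protein of smooth muscle and activated stellate cells, read 1627, 2074 and 2375 in oval cells, 245, 512, 377, 285 and 342 in foci and 150.1 and 200.4 in control. The groups did not overlap, and the log2 difference was 4.25 ± 0.28 in oval cells (at least 6.76-fold) and 1.40 ± 0.29 in foci (at least 1.17-fold, SE). Without background correction the foci value of Tagln was 0.97, under the fold limit. With arrays centred on ribosomal protein genes it was 0.56 (limma adjusted p = 0.0621). Des, desmin, the intermediate filament of rat stellate cells, read 425, 496 and 674 in oval cells, 220.3, 264, 205, 240.5 and 224 in foci and 179 and 226 in control, and was at least 1.78-fold higher in oval cells against control. Pdgfra, a receptor for platelet-derived growth factor on mesenchymal cells, read 550.2, 666 and 770.0 in oval cells, 179, 229, 239.6, 208 and 203 in foci and 364 and 356 in control. Every foci array was under 300 and under both control arrays, at least 1.20-fold lower (log2 -1.06 ± 0.17 SE, adjusted p = 8.45e-05), and the log2 difference was -0.96 without foci replicate 1. In oval cells the log2 difference of 1.04 ± 0.17 (SE) against control was close to the fold limit. It was 0.99 without oval cells replicate 3 or 5 and 0.01 with arrays centred on ribosomal protein genes. Without background correction it was 0.88, and the foci value was -0.77, both under the fold limit.

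**Figure D3:**
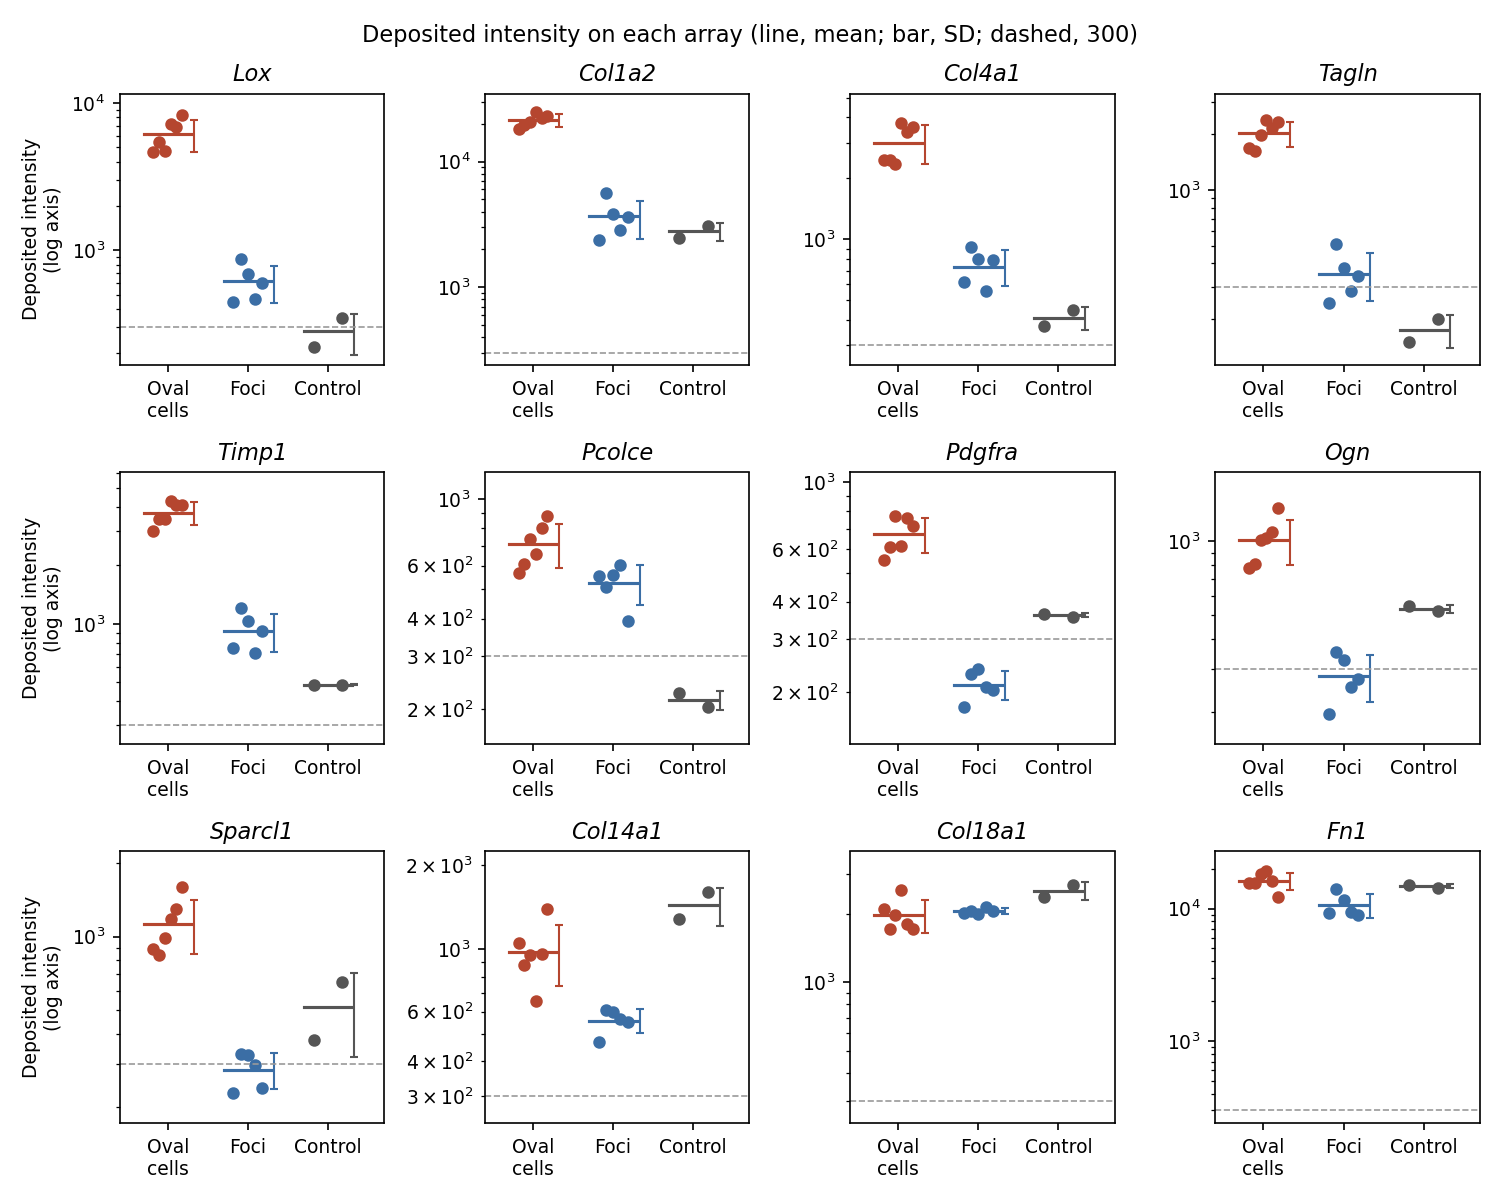
Deposited intensity (log axis) of 12 genes on each array, with the mean as a line, the SD as a bar and the limit of 300 dashed. Lox, Timp1 and Tagln step down across oval cells, foci and control, while for Pdgfra, Ogn and Sparcl1 the foci lie below control.

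Set against foci, oval cells were higher for 27 of the 34 genes, and 30 lay above foci on every array (25.8% of all probes) and 0 below (25.7%). These comparisons share arrays, so that their values are set side by side and no more. Against both other groups 26 genes were higher in oval cells, 8 of them collagens. The share of all probes higher against both was not counted, and it cannot exceed the 7.96% higher against foci. Those collagens were 3.63-fold to 8.48-fold higher by the fit against control and 3.75-fold to 6.17-fold against foci, where the fitted folds of Col1a1 and Col8a1 are uncertain because their dimmer group lay near or under 300. Col1a1 and Col8a1 had also passed the limit through oval cells alone, so that the direction is not a result for either. The same holds for Loxl1, Loxl2, Eln, Lamb2, Bgn and Des among the 26. The largest fitted difference from foci was again that of Lox (log2 3.51 ± 0.22 SE, 11.4-fold, adjusted p = 5.86e-09). Adamts2 followed with 2.95 ± 0.15, then Tagln with 2.85 ± 0.21, Mgp with 2.75 ± 0.25 and Loxl1 with 2.73 ± 0.21. Adamts2 differed by 7.74-fold, and its foci and control arrays overlapped. Of the 7 genes with no call between the lesions, Pcolce, Lamc1, Col14a1, Mmp14 and Fn1 had log2 differences between 0.49 and 0.97, and Col18a1 and Adamts1 had -0.08 and -0.20.

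**Figure D4:**
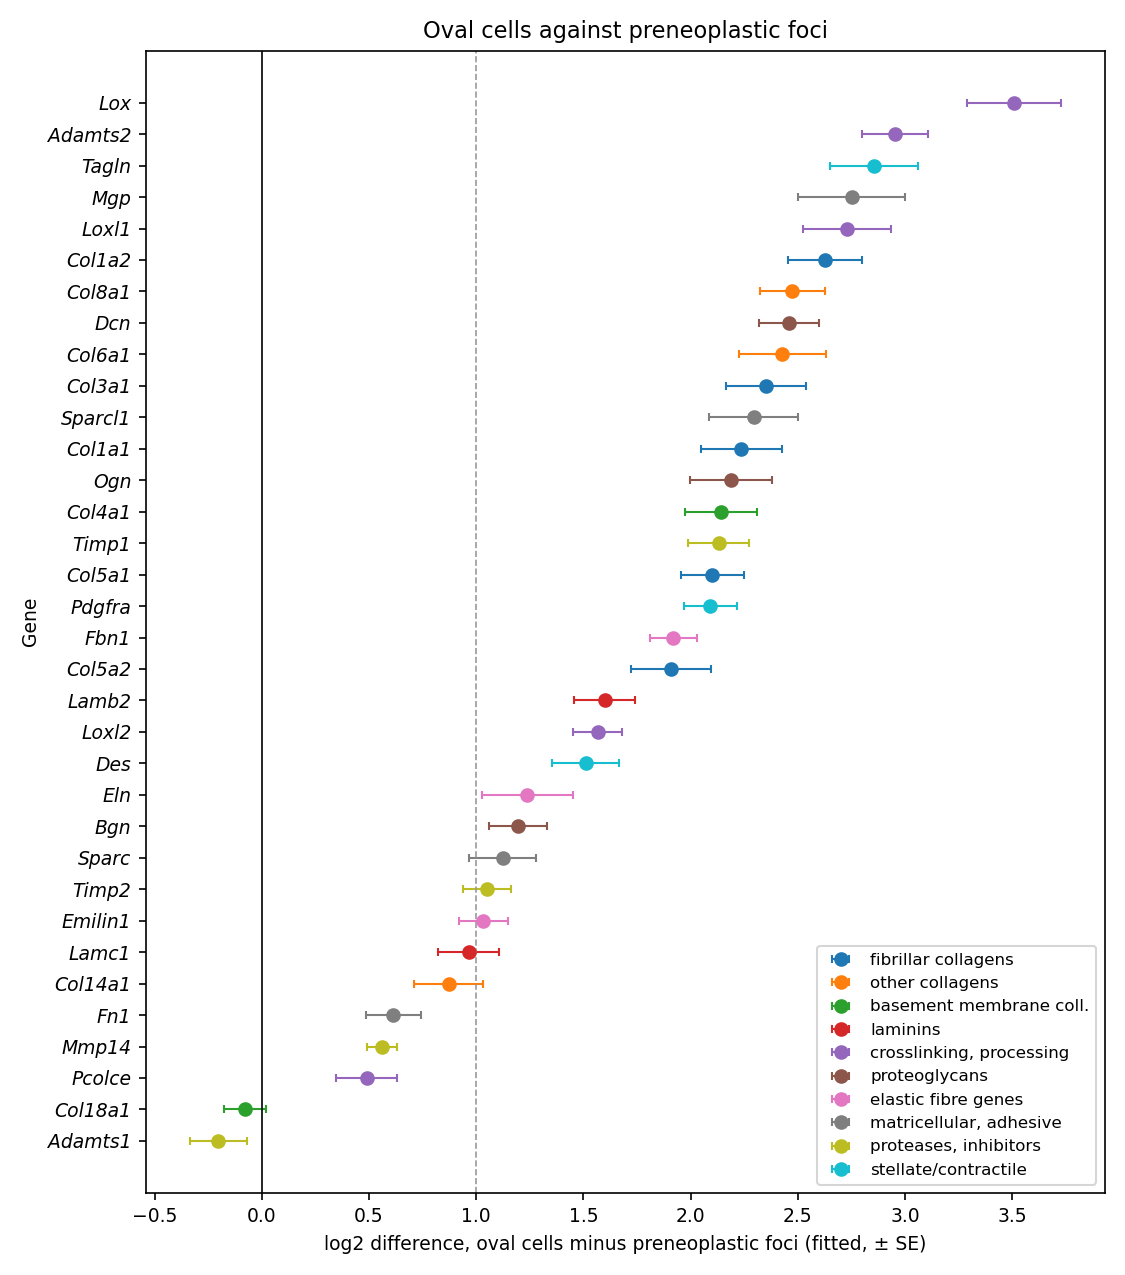
Fitted log2 difference (± SE) of oval cells minus preneoplastic foci for the 34 tested genes, ordered by size and colored by role, with a dashed line at a 2-fold difference. Lox lies highest at 3.51, and Col18a1 and Adamts1 are the genes below 0.

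The 22 genes that did not pass the limit comprised 15 collagens, among them Col2a1, Col4a3, Col4a4, Col4a5, Col6a2 and Col15a1, with Postn, Thbs2, Mmp2, Timp3, Fmod, Lum and Vcan. Of these 19 stayed between 118 and 259.2 on every array, and their levels are not measured here. The proteoglycan Lum exceeded 300 on 2 arrays, 304 and 334, Vcan on 1 with 319.6, and Postn on oval cells replicate 4 with 543.

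Genes that act with these proteins were read from lists by function. Of 13 genes of collagen synthesis in the endoplasmic reticulum that were tested, 3 were higher in oval cells against control and 1 lower. Of all probes 13.5% were higher and 12.0% lower, the shares to set beside each list that follows in that comparison. In foci against control the shares were 10.3% higher and 7.80% lower, and in oval cells against foci 7.96% and 6.73%. Plod2, which hydroxylates the lysines used in crosslinks, averaged 3389.6 ± 611 in oval cells, 539 ± 87.3 in foci and 529 ± 30.1 in control (SD, log2 difference 2.84 in oval cells against control). Fkbp10, a collagen chaperone, averaged 1658 ± 260.3 in oval cells, 433 ± 91.4 in foci and 295 ± 15.1 in control (SD, 2.81). P3h3 was the other gene higher (1.01) and Sec23a, a coat protein of transport vesicles, the one lower (-1.33). P3h3 passed the limit through oval cells alone, which set its direction, and its fold against control was at least 1.40. The prolyl hydroxylase genes P4ha1, P4ha2 and P4hb were not called, at log2 differences between -0.24 and 0.33. None of the 13 was called in foci, and Bmp1 and Tgm2, the 2 tested genes of further procollagen processing and crosslinking, were called in no comparison. Of 10 matrix receptors 4 were higher in oval cells, namely the integrin chains Itgb1 (1.91), Itgb4 (1.33) and Itgb6 (1.81) and the hyaluronan receptor Cd44 (2.84), while the syndecan Sdc2 was lower in oval cells (-1.35) and in foci (-1.30). Against foci 6 receptors were higher in oval cells, with Itga1 and Dag1 added to these 4. Itgb4, Itgb6 and Cd44 passed the limit through oval cells alone, which set their direction in both comparisons. Both control arrays of each lay under 300, so that their folds against control have only a lower bound. Agrn, the basement membrane proteoglycan agrin, was the gene tested of 4 others related to laminins, and was higher in oval cells (1.95).

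Of 9 other matrix proteases and inhibitors 5 were higher in oval cells against control and 0 lower. These were the plasminogen activator Plat (2.85), the macrophage elastase Mmp12 (2.35), the protease inhibitor Serpine2 (2.21), the collagen-cutting cathepsin Ctsk (1.77) and Reck (1.73), an inhibitor anchored in the membrane. In foci Mmp12 alone was higher (1.16). Of 8 genes of the TGF-beta and PDGF pathways, both of which drive stellate cells, 5 were higher in oval cells. They were the ligands Pdgfa (2.31) and Tgfb2 (1.77) and the latent TGF-beta binding proteins Ltbp1 (1.96), Ltbp2 (1.82) and Ltbp4 (1.64). In foci Pdgfa (1.24) and Smad7, an inhibitor of the TGF-beta signal (1.00), were higher and 0 were lower. Mmp12, Tgfb2 and Ltbp2 passed the limit through oval cells alone, so that their direction in oval cells was set by the limit. Their folds there against control were at least 1.69, 1.42 and 1.65. Tgfb1, Tgfbr1, Tgfbr3, Smad3, Pdgfb and Pdgfd stayed under 300 on every array.

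Markers of some other cell types moved with these genes and those of others did not, and their part in the results was not tested. Among these markers, Mfap4 (portal fibroblast list) and Actg2 and Myl9 (smooth muscle list) passed the limit through oval cells alone, which set their direction. The same holds for Krt7, Cldn4 and Muc1 of the biliary list. Of 8 biliary markers 7 were higher in oval cells against control, led by Krt19 (4.92), and the summed intensity of the list was 20270.5 to 29076 in oval cells, 5692 to 7915 in preneoplastic foci and 6138 to 6284 in control. In foci Krt19 (1.38) and Epcam (1.45) were higher and Onecut1 lower (-1.10). Of the markers of portal fibroblasts and mesothelium 4 of 4 tested were higher in oval cells, led by Msln (3.92), with sums of 3964 to 6169 in oval cells, 1924 to 2253 in preneoplastic foci and 1509.6 to 1706 in control, while Thy1, Cd34 and Wt1 were under 300 on every array. Of 4 markers of vascular smooth muscle Myl9 (1.79) and Actg2 (1.29) were higher in oval cells, with sums of 4299 to 5000.3 in oval cells, 2580.4 to 3182 in preneoplastic foci and 3458 to 3694 in control, and Cnn1, Mylk and Lmod1 were under 300 throughout. Of 4 endothelial markers 3 were higher in oval cells, led by Vwf (2.39), with sums of 4793 to 6137 in oval cells, 3164 to 3858 in preneoplastic foci and 2809 to 3274 in control, and Cdh5, Tek and Flt1 were under 300 throughout.

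Of 3 tested markers of the quiescent stellate cell 1 was higher in oval cells and 2 were lower in foci. Cygb was higher in oval cells (1.66, at least 1.56-fold), but it passed the limit through oval cells alone, which set its direction. Reln (-0.29) and Ecm1 (-0.94) were not called there. In foci Reln (-1.47) and Ecm1 (-1.60) were lower, as were Pdgfra, Ogn and Sparcl1 above. The summed intensity of the list was 4649 to 5017 in oval cells, 2798 to 3308 in preneoplastic foci and 6022 to 6268 in control, with foci below both other groups, and Gfap, Hand2, Ngfr, Nes and Ncam1 were under 300 on every array. Of 11 hepatocyte markers 1 was higher in oval cells (Pck1) and 1 in foci (Arg1), and the sums of 266725 to 308272 in oval cells, 270481 to 285180.0 in preneoplastic foci and 277853 to 295284 in control overlapped. Alb averaged 39885 ± 544 in oval cells, 29138 ± 2993 in foci and 35095 ± 3845 in control (SD), and Hnf4a stayed under 300 on every array. Of 8 macrophage markers 0 were higher and 1 lower in oval cells, and 3 were lower in foci, with sums of 11906 to 16165 in oval cells, 7931 to 10579 in preneoplastic foci and 10832 to 13805 in control. Of 3 lymphocyte markers Nkg7 was higher in oval cells (1.43), with sums of 2515 to 3614 in oval cells, 2101 to 2305 in preneoplastic foci and 2167 to 2255 in control.

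Arrays of a group differed in these genes together. Among the foci, replicate 2 was the highest of the 5 arrays for 28 of the 34 genes, beside 26.1% of all probes, and replicate 1 the lowest for 20, beside 22.1%. Col1a2 read 5573 on foci replicate 2 and 2387 on foci replicate 1, and Mgp 2822 and 852. Of 8 biliary markers 5 and of 4 portal fibroblast and mesothelial markers 2 were also highest on foci replicate 2, with 1248 for Krt19 against 433 to 726 on the other foci arrays, 1866 for Epcam against 942 to 1418, and 653 for Msln against 361 to 502. The biliary markers highest on another foci array were Anxa4, Onecut1 and Muc1, and those of the other list Entpd2 and Fbln1. Of the other marker lists, foci replicate 2 was highest for 4 of 8 macrophage, 2 of 4 endothelial and 3 of 11 hepatocyte markers. It was highest for 1 of 3 quiescent stellate cell, 0 of 4 smooth muscle and 0 of 3 lymphocyte markers. The part of these markers in the array pattern was not tested. Without foci replicate 2 the genes higher in foci against control were 3 of the 34, Lox, Pcolce and Tagln. Among oval cells, replicates 4, 5 and 6 were the 3 highest arrays for 20 of the 34 genes, beside 12.6% of all probes, and replicate 1 was the lowest for 18, beside 17.5%. The lowest oval cell array still lay above the highest foci array for 30 genes.

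**Figure D5:**
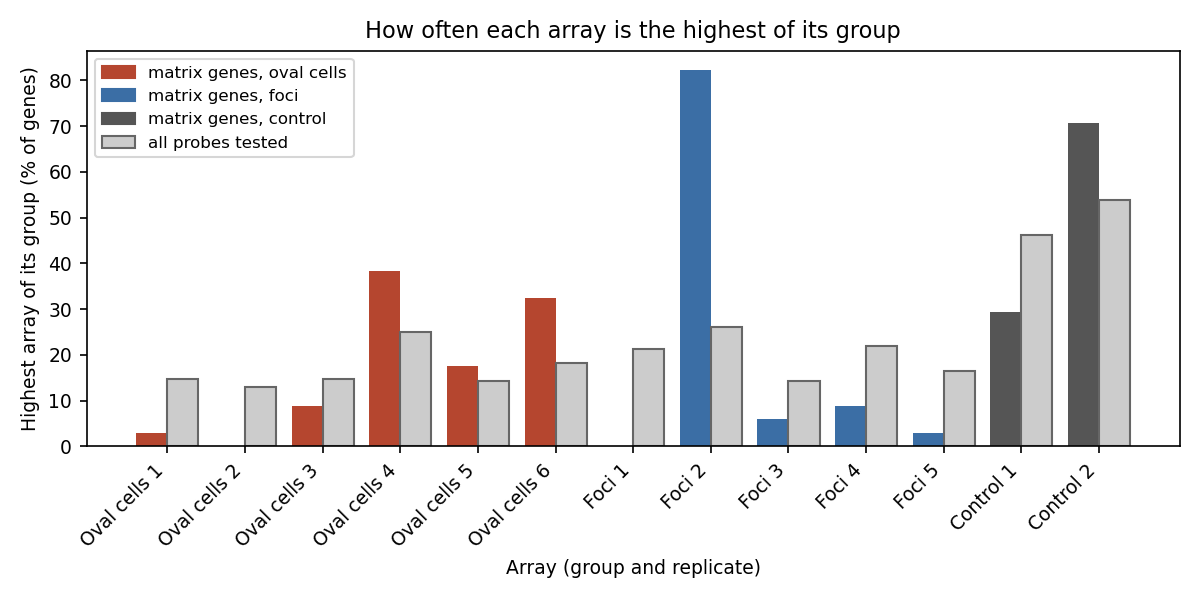
For each array, the percentage of the 34 genes (colored bars) and of all probes tested (grey bars) for which it was the highest array of its group. Foci replicate 2 was highest for 28 of the 34 genes, against 26.1% of all probes.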

How the data were processed

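RNA of microdissected lesions, in pools, and of control liver was hybridised to 13 arrays, and the authors read them with BeadStudio, for which the submitters' processing notes give version 3.0.19.0, before quantile normalization. The deposited values are a linear intensity per probe. Quantile normalization gives each array the same distribution, so that a shift of total RNA cannot be seen. The number of arrays limits the precision. A second deposited table was left out because the names of its 26 columns could not be tied to any label.

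Intensities were corrected with normexp (offset 50), normalized by quantiles, taken to log2 and fitted in limma (version 3.58.1, R version 4.3.3) in 1 fit of 13 arrays and 3 groups, with 3 contrasts and Benjamini-Hochberg adjustment over 6997 probes whose median exceeded 300 in at least 1 group. The offset shrinks differences of dim probes, but the background step as a whole did not make the calls fewer. Without that step 14 calls were lost and 0 gained among the genes of the set called in at least 1 comparison. The fit was tested on simulated data. The annotation gave 13793 probes 1 symbol, and 8730 are unnamed here. Every tested gene of the set is named, by its brightest probe, and of each other list up to 4 genes with the smallest adjusted p, while further genes of those lists were named after their values were seen. The genes, lists and alternatives were chosen with earlier results of these data known. Alternatives covered the background step, offset, filter, fold limit, probe choice, normalization, centring, array weights, the methods' t-test, the groups fitted and each array left out. Groups follow the labels, and replicate numbers follow the accession order and pair nothing. Nothing in the labels says which arrays come from separate animals, so the p-values measure the spread between arrays.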

Additional observations from a re-analysis of the deposited data

Results flagged for a closer look

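In 68 groups of 5 or 6 arrays, 2 had an array far from the others, and chance gives about 1 in 20. Loxl2 had its lowest foci array, replicate 4, at a gap of 0.725 of the group's range, and Adamts1 its highest oval cell array, replicate 6, at a gap of 0.669. For 5 genes all oval cell arrays lay above control and all foci arrays below it. That pattern already sets every oval cell array above every foci array. The limma contrast of oval cells and foci therefore gives the size of the difference and is no further test. The share of all probes with this pattern was not counted, so that the count of 5 is a description. Taken singly, 37.7% of all probes lay above control on every oval cell array and 34.1% below it on every foci array. Oval cells exceeded foci by 2.29 on the log2 scale for Sparcl1, by 2.19 for Ogn and by 2.09 for Pdgfra, each of which was called against control in both lesions. Without background correction none of these genes kept both calls. Against control Ogn was then 0.91 in oval cells and -0.95 in foci, Pdgfra 0.88 and -0.77, and Sparcl1 -0.82 in foci. For Fbn1 oval cells exceeded foci by 1.92 and for Timp2 by 1.05, with no call in foci against control. Timp2 passed the limit through oval cells alone. Foci were hybridised on another slide than control and oval cells, so that the slide cannot be told apart from the group there.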

How the results depend on the processing

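No paired analysis was possible because the labels carry no replicate number that pairs arrays across groups. With each array left out, the genes higher in oval cells against control numbered 26 to 29 and those against foci 26 to 28, while in foci against control 3 to 7 were higher and 2 to 4 lower. The lowest of these counts in foci, 3 higher and 2 lower, came without foci replicate 2 and without foci replicate 1. Without background correction 3 genes were higher and 1 lower in foci. In oval cells the higher calls of Emilin1, Bgn, Ogn and Pdgfra against control were then lost. Against foci those of Eln, Emilin1, Timp2 and Bgn were lost. With no fold limit 2 genes were lower in oval cells, and 12 were higher and 7 lower in foci. More of all probes can be called then as well, so that these counts cannot be set beside the main shares. The shares of all probes called with an array left out, without background correction or with no fold limit are not given here. Centring on ribosomal protein genes gave 15 higher and 2 lower in oval cells against control, beside 3.76% and 50.8% of all probes, and 0 higher and 12 lower in foci, beside 2.34% and 40.0%, and turned the log2 difference of Ogn in oval cells to -0.026. The cause was not tested. Differences of probes near 300 have only a bound in their dimmer group.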
